A study of Mus musculus with 6 samples.

Results

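The spliceosome genes described here are the genes that the authors' table assigns to the KEGG spliceosome pathway of the mouse, other than genes whose symbol begins with Hspa (heat shock proteins that KEGG also files there). The pathway held 129 genes of the table, 5 of them were such heat shock genes, and the remaining 124 of 17744 genes in all are called members below. Of the members, 123 reached an FPKM of at least 1 in 3 libraries and were tested among 10655 genes. FPKM is the number of sequenced fragments scaled for the length of the gene and the depth of the library, so levels can be compared between genes. The member that did not reach it, Hnrnpa1l2-ps2, had an FPKM of 0.22, 0.17 and 0.24 in the controls and 0.20, 0.11 and 0.02 in the treated libraries.

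The study sorted CD8 T cells (CD45+ CD3+ CD8a+) from mouse spleen for RNA-seq, and its title names focused ultrasound of the spleen, a treatment that brings sound waves to a focal point inside the body. The control group was 3 libraries, with the genotype wt and the treatment control. The ultrasound group was 3 libraries whose genotype field names the ultrasound irradiation in place of a genotype. The labels used here give no strain, age, sex, tumour status, dose, interval after treatment or batch, and nothing in them says that the libraries of a group came from separate animals. P-values therefore measure the spread between these libraries, which may be technical.

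The spliceosome removes introns from pre-mRNA. It is assembled on each intron from small nuclear ribonucleoproteins, each a small RNA with a ring of Sm or LSm proteins: U1 recognizes the 5′ splice site, U2 the branch point, and the U4/U6 and U5 tri-snRNP then joins and is rearranged by helicases and the Prp19 complex into the catalytic machine. SR proteins and hnRNP proteins bind exons and introns and shift which sites are used, and T cells are known to change splicing of many transcripts, Ptprc (CD45) among them, on activation. In a bulk library of sorted cells, fewer cells of a type and less RNA per cell cannot be told apart.

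The libraries held 35024080 to 38113103 reads, and each tested member had at least 144 reads in every library. The ultrasound libraries were not alike: among the members, ultrasound 1 lay within the range of the controls for 57 of 123, against 14 for ultrasound 2 and 16 for ultrasound 3 (46.3%, 11.4% and 13% of members, beside 32.3%, 17.3% and 15.9% of all tested genes), so results are given below with and without ultrasound 1. Markers of the sorted cells were present, with 9 of 10 CD8 T cell genes in the table and a summed FPKM of 2809 to 2963 in the controls and 2448 to 3276 in the ultrasound libraries. Markers of other cells differed between groups: the 13 macrophage and monocyte genes summed to an FPKM of 580 to 1201 against 2437 to 3942, the 10 neutrophil genes to 189 to 577 against 649 to 2320. The 9 B cell genes in the table summed to 216 to 329 against 160 to 852, with ultrasound 1 the lowest and ultrasound 2 the highest, and no marker of these lists was at 0 in any library. Reads of mitochondrial genes made up 2.05 to 2.70% of the control libraries, 2.19% of ultrasound 1, 0.954% of ultrasound 2 and 0.937% of ultrasound 3. The part of these differences in the results below was not tested.

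For most spliceosome members the difference between groups did not pass the test, and the list of SR proteins and Tra2 had the lowest median, set by ultrasound 2 and 3. The members together made up 2.34, 2.36 and 2.27% of the reads of control 1, 2 and 3 and 2.23, 1.91 and 1.86% of those of the ultrasound libraries. The ultrasound libraries were all below the controls, ultrasound 1 by less than ultrasound 2 and 3. The test was limma (moderated linear models) on log2(FPKM + 1) with Benjamini-Hochberg adjustment over all tested genes. It called 2 of 123 members at an adjusted p under 0.05, both lower (1.63%), where 8.11% of all tested genes were called, 6.55% higher and 1.56% lower. These 2 were Tra2a and Tra2b. At an unadjusted p under 0.05 there were 24 members, and 31.2% of all genes.

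The median log2 change over members was −0.005, and that over all tested genes was 0.087. With the libraries rescaled by median-of-ratios size factors the medians were −0.110 and −0.006, so both scalings place the median member about the same distance below the median gene. Of the members, 65 (52.8%) had a log2 change below 0, as had 38.3% of all tested genes. The ultrasound libraries lay above every control for 15 members (12.2%) and below every control for 19 (15.4%), so that 34 (27.6%) did not overlap. Over all tested genes these shares were 25.9%, 8.96% and 34.8%. In the authors' deposited table, made with DESeq2 (a count model) and its own scaling, 17 members (13.8%) had a q under 0.05 and each had a log2 fold change below 0. The authors' deposited table has a q under 0.05 for 16.4% of tested genes, 8.64% higher and 7.73% lower.

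**Figure D1:**
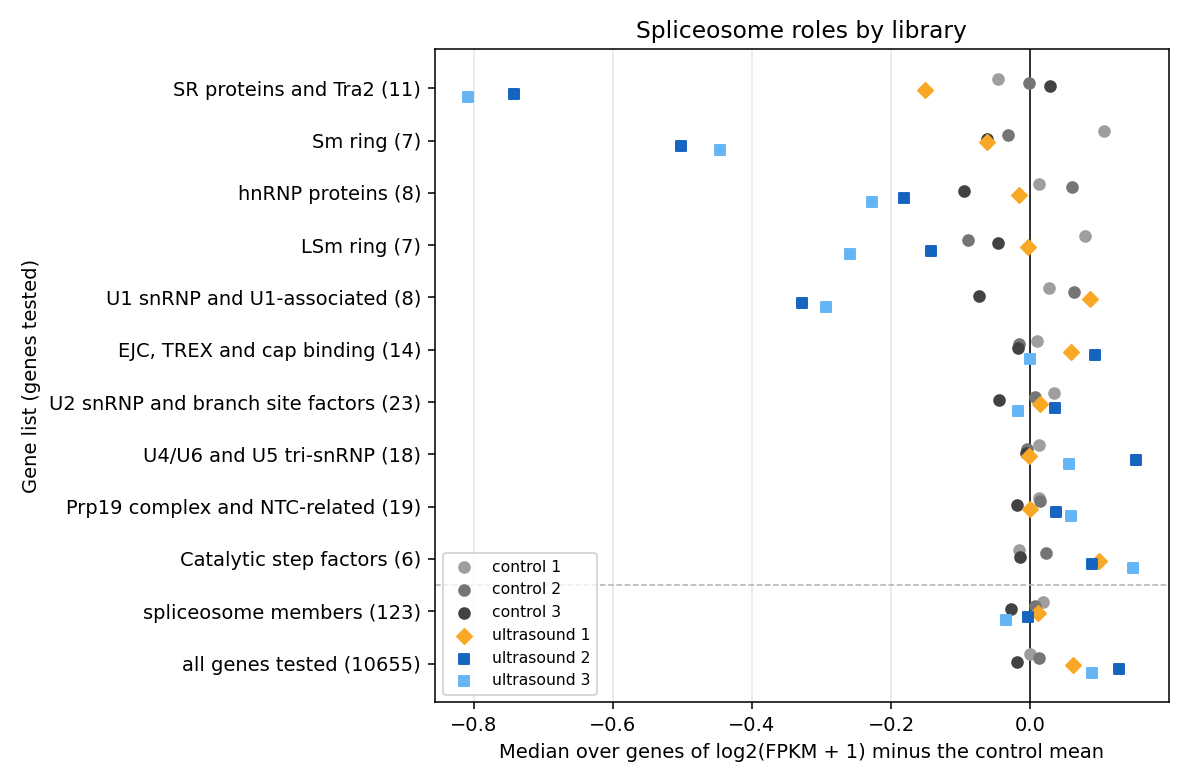
Median over the genes of each list of log2(FPKM + 1) minus the control mean, for each of the 6 libraries; circles are controls, diamonds ultrasound 1 and squares ultrasound 2 and 3, with the number of genes tested in brackets. The SR proteins and Tra2 list has its 3 ultrasound medians at −0.15, −0.74 and −0.81, while the tri-snRNP list stays between −0.00 and 0.15.

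SR proteins carry stretches of alternating arginine and serine and, bound to exonic enhancers, recruit U1 and U2 to nearby splice sites; the Tra2 proteins are SR-like activators of exon inclusion. Of the 11 tested, 2 fell (Tra2a and Tra2b), 9 had a log2 change below 0, 7 lay below every control in all ultrasound libraries, and 2 (Srsf9 and Srsf4) lay above every control. Over all tested genes 38.3% had a log2 change below 0, 8.96% lay below every control and 25.9% above. The summed FPKM of the list was 1227, 1248 and 1234 in the controls against 1087, 760 and 767 in the ultrasound libraries. The controls lay close together, and ultrasound 2 and 3 sit far below them with ultrasound 1 in between. The median log2 change was −0.54 for this list and 0.005 for the 112 tested members outside it, 56 of which lay above 0 and 56 below, with none called by limma after adjustment.

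Tra2a (chromosome 6, 49243921 to 49264248, mm10) had an FPKM of 62.0, 64.3 and 66.9 in the controls, against 48.5, 27.0 and 30.6 in the ultrasound libraries. The groups did not overlap, and ultrasound 1 was the nearest to the controls. The mean fell by 45.1%, from 64.4 ± 2.47 to 35.4 ± 11.5 (SD, n = 3 each), a log2 change of −0.89 (SE 0.21, limma adjusted p = 0.0476).

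Its paralog Tra2b, which autoregulates its own mRNA through a poison exon, had an FPKM of 71.0, 77.3 and 84.3 in the controls and 54.2, 38.3 and 38.8 in the ultrasound libraries. Again all ultrasound libraries lay below all controls. The mean fell by 43.5%, from 77.5 ± 6.65 to 43.8 ± 9.06 (SD, n = 3 each), a log2 change of −0.83 (SE 0.15, limma adjusted p = 0.0322). After median-of-ratios scaling the Tra2b call held (log2 −0.93, limma adjusted p = 0.0443) and the Tra2a call was lost (log2 −0.99, limma adjusted p = 0.0534). Limma called 2 members under that scaling, Magoh and Tra2b (4.1% of all genes), 4 with upper-quartile factors (5.85% of all genes) and 5 by voom on recovered reads with median-of-ratios factors (5.38% of all genes), each of them lower. Without any one of control 1, 2 or 3 or ultrasound 2 or 3, limma called 0 members after adjustment, with 10 to 13 at an unadjusted p under 0.05. Over all genes it then called 571 without control 1 and 0 without each of the other 4.

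**Figure D2:**
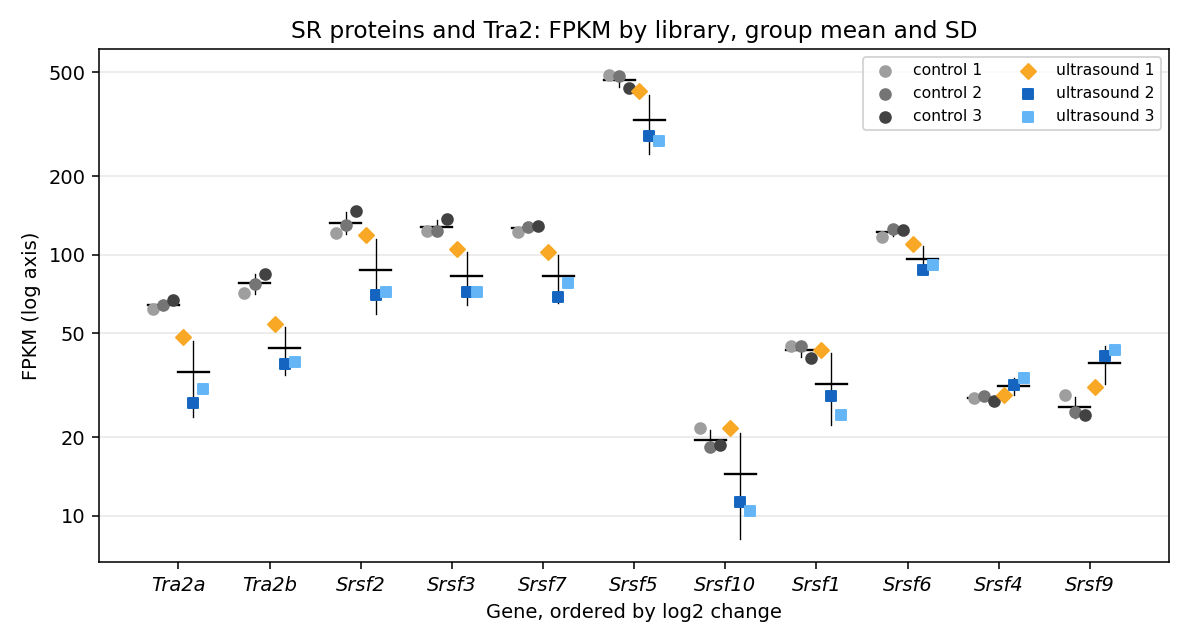
FPKM (log axis) of the 11 tested SR and Tra2 genes in each library, ordered by log2 change, with the group mean (horizontal bar) and SD (vertical line, n = 3 each). Tra2a and Tra2b are at the left, Srsf9 is at the right with the ultrasound libraries at 31.1, 40.8 and 43.0 above the controls at 24.4 to 28.9.

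Srsf3, the smallest of the family and also a factor in mRNA export, had an FPKM of 123, 123 and 138 in the controls and 105, 72.2 and 71.7 in the ultrasound libraries. Srsf7, its closest relative, had 122, 128 and 129 against 102, 68.7 and 77.7. Both genes were separated between groups, with log2 changes of −0.64 (SE 0.16) and −0.62 (SE 0.15), but neither passed the threshold (limma adjusted p = 0.0584 and 0.0516). Srsf2, which binds exonic enhancers, had an FPKM of 121, 130 and 146 against 119, 70.2 and 72.0, a log2 change of −0.64 (limma adjusted p = 0.103). Its ultrasound 1 value was only just under the lowest control, and 25.3% of its exonic bases lie on the opposite strand of another gene, which matters since no strand setting for the counting is given in the sources used here.

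Srsf5, the most abundant SR gene, had an FPKM of 487, 484 and 434 in the controls and 424, 284 and 273 in the ultrasound libraries (log2 −0.54, limma adjusted p = 0.1002). Srsf6 had 117, 126 and 125 against 109, 87.7 and 91.3 (log2 −0.35, limma adjusted p = 0.0897). These ranges did not overlap either, and in both genes ultrasound 1 lay close under the lowest control. For Srsf1, the founding member of the family, the groups overlapped, at 44.7, 44.7 and 40.3 against 43.0, 28.8 and 24.2 (log2 −0.46, limma adjusted p = 0.169). Srsf10, a splicing repressor that is activated by dephosphorylation, overlapped too, at 21.6, 18.2 and 18.6 against 21.7, 11.2 and 10.4.

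Srsf9 had the opposite order. Its FPKM was 28.9, 24.9 and 24.4 in the controls and 31.1, 40.8 and 43.0 in the ultrasound libraries, a log2 change of 0.53 (SE 0.14, limma adjusted p = 0.0660), the highest of any tested member. Srsf4 had 28.2, 28.8 and 27.6 against 29.0, 31.6 and 33.6 (log2 0.15, limma adjusted p = 0.275), and 43% of its exonic bases lie on the opposite strand of another gene. After median-of-ratios scaling the log2 change was 0.43 for Srsf9 (limma adjusted p = 0.104) and only 0.04 for Srsf4 (limma adjusted p = 0.737). So by FPKM, 9 genes of this family sat below and 2 above the controls in both ultrasound 2 and ultrasound 3. Those 2 were the same genes in each, and the rise of Srsf4 depends on the scaling.

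The stretches just upstream of the gene start are printed for Tra2b, the member with the smallest adjusted p, and for Srsf9, with the change most to the other side, to set side by side 2 family members with log2 changes of opposite sign. Both are the transcript strand, 5′ to 3′, from RefSeq (GRCm38.p6, the same assembly as mm10): Tra2b at chr16:22266006-22266255 (minus strand) and Srsf9 at chr5:115326927-115327162 (plus strand). Capitals mark matches to the motifs searched, on either strand.
Tra2b: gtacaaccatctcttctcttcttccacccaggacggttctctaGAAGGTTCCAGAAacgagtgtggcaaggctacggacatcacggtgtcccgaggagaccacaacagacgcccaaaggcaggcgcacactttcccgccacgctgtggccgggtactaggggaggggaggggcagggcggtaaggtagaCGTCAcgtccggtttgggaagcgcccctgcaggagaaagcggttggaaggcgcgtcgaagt
Srsf9: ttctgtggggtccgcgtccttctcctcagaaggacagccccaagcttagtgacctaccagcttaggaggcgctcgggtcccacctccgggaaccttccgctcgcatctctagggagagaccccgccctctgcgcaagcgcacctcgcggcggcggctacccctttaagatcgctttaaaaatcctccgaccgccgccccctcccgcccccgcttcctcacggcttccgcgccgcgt
In the Tra2b stretch the capitals are a heat shock element (GAA, TTC and GAA, each followed after a pair of any bases by the next), then the core of a cyclic AMP response element (TGACG, here on the opposite strand). The Srsf9 stretch held no match to any of the 9 motifs searched, which were these, the full palindromic response element that contains the core, the ETS motif CCGGAAG, the CCAAT box, the E-box CACGTG, the AP-1 motif TGANTCA, the TATA box TATAAA and the NRF1 motif. The heat shock element was found in 0.466% of 32851 RefSeq promoter windows of 250 bases and in 1 of the 95 members with a window. The response element core was found in 17.8% of windows, in 41 of the 95 (43.2%), and in 7 of 11 SR and Tra2 genes: Srsf1, Srsf3, Srsf5, Srsf6, Srsf10, Tra2a and Tra2b. The GC content of the full window of 250 bases was 60.8% for Tra2b and 65.2% for Srsf9. The last 14 bases of the Srsf9 window lie inside the gene and are not printed. The ETS motif CCGGAAG was found in 36 members (37.9%) and 6.91% of all windows, and the AP-1 motif TGANTCA in 2 members (2.11%) and 6.75% of all windows. A member was counted once if any of its windows matched, while the shares over all windows count each window, so these shares are in unlike units. A match is a run of letters, and binding was not measured.

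The hnRNP proteins coat nascent RNA and often oppose SR proteins. None of the 8 tested was called by limma after adjustment (lowest adjusted p = 0.0897), and the median log2 change was −0.17. Of the 8, 3 lay below every control and 0 above (8.96% and 25.9% of all tested genes). Hnrnpa1, a repressor of exon inclusion and the third most abundant member, had an FPKM of 482, 493 and 444 in the controls and 409, 243 and 208 in the ultrasound libraries. The groups did not overlap, and the log2 change of −0.78 (SE 0.24, limma adjusted p = 0.0897) did not pass. Hnrnpa1 has many near-identical processed copies in the genome, and how the authors' counting split such reads is not given in the sources used here. Hnrnpc, which guards introns against exonization, had 91.9, 95.0 and 89.2 against 81.5, 80.6 and 79.3, separated but by a small step (log2 −0.19, limma adjusted p = 0.147). Hnrnpu, a nuclear scaffold factor, had 64.8, 66.1 and 58.6 against 60.9, 45.9 and 41.8. Hnrnpk, a poly(C)-binding protein, overlapped between groups, at 184, 177 and 159 against 176, 170 and 153 (log2 −0.06), with ultrasound 3 alone below the lowest control.

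The Sm ring is the core shared by U1, U2, U4 and U5, and the LSm ring holds the end of U6. None of the 7 Sm or the 7 LSm genes tested was called by limma after adjustment, at lowest adjusted p of 0.0778 and 0.181. Of the Sm genes 3 and of the LSm genes 0 lay below every control, beside 8.96% of all tested genes. Snrpg had an FPKM of 213, 175 and 208 in the controls and 165, 139 and 145 in the ultrasound libraries (log2 −0.40). Snrpe had 117, 97.5 and 105 against 97.1, 70.9 and 63.6 (log2 −0.48, limma adjusted p = 0.114), and its ultrasound 1 value was next to the lowest control. Snrpf had 99.8, 97.8 and 88.7 against 95.1, 48.6 and 47.8 (log2 −0.65), so that ultrasound 1 sat among the controls and the other ultrasound libraries far below them. For Snrpf, 85.4% of the exonic bases lie on the opposite strand of another gene.

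Lsm5 had the lowest log2 change of any tested member, −0.93, but with an SE of 0.43 (limma adjusted p = 0.184). Its FPKM was 32.7, 23.5 and 26.3 in the controls and 29.3, 10.97 and 7.96 in the ultrasound libraries, and ultrasound 1 was inside the control range. Lsm8, the subunit that sets the nuclear ring apart from the cytoplasmic one, followed the same order, at 39.8, 37.7 and 37.1 against 39.4, 23.6 and 22.0. Lsm7 went the other way, at 20.2, 18.1 and 21.2 against 18.8, 31.6 and 30.9 (log2 0.40, limma adjusted p = 0.216). Subunits of this one ring therefore did not shift together in ultrasound 2 and 3.

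**Figure D3:**
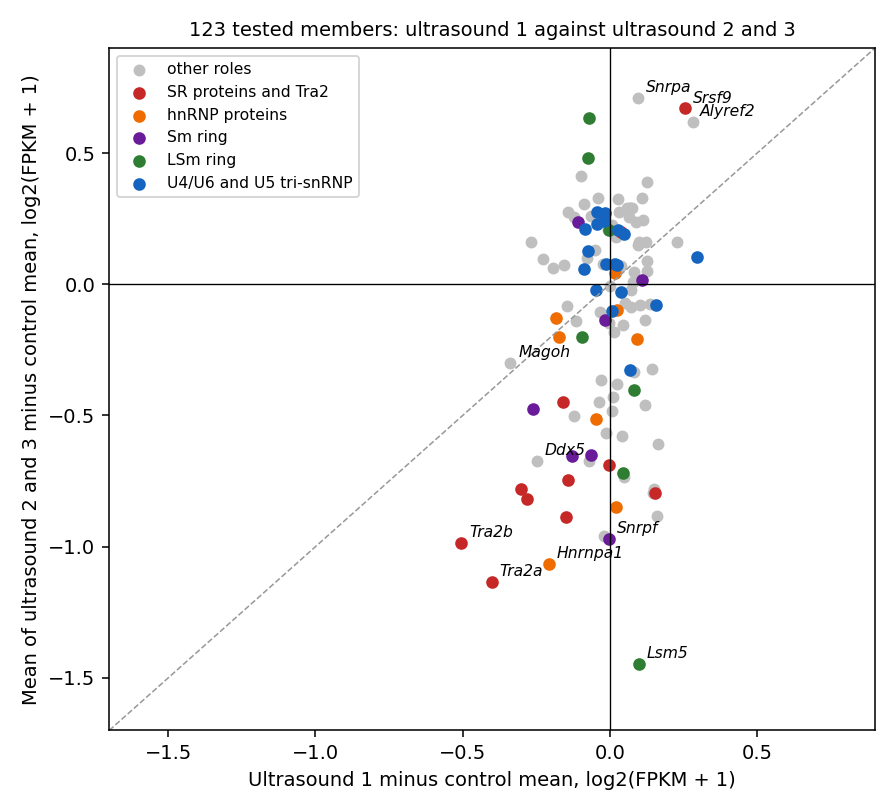
Each point is 1 of 123 tested members; the horizontal axis gives ultrasound 1 and the vertical axis the mean of ultrasound 2 and 3, both as log2(FPKM + 1) minus the control mean, with a dashed line where they are equal. Tra2a, Tra2b and Magoh are low on both axes, while Lsm5 and Snrpf are low on the vertical axis only.

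Of the 8 U1 and U1-associated genes, 0 were called by limma after adjustment. Snrnp70, which binds the first loop of U1 RNA, overlapped between groups at 128, 116 and 124 against 133, 104 and 120 (log2 −0.05). Snrpa had 29.4, 34.01 and 31.4 against 33.8, 55.1 and 49.4 (log2 0.50, limma adjusted p = 0.120) and Snrpc 40.5, 41.2 and 35.8 against 41.2, 46.7 and 49.5 (log2 0.22). Both were highest in ultrasound 2 and 3. Ddx5, an RNA helicase that unwinds U1 from the 5′ splice site and the most abundant member, had 774, 819 and 768 against 662, 510 and 476. All ultrasound libraries were below all controls, with a log2 change of −0.53 (SE 0.14, limma adjusted p = 0.0594).

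Among 23 U2 and branch site factors, 0 were called by limma after adjustment, and the median log2 change was 0.03 (−0.07 after median-of-ratios scaling). Of the 23, 3 lay above every control and 3 below (25.9% and 8.96% of all tested genes). Sf3b1, the largest subunit of the complex that clamps the branch point, had an FPKM of 159, 162 and 155 in the controls and 151, 101 and 97.1 in the ultrasound libraries (log2 −0.47, limma adjusted p = 0.123). The partners Sf3b5 and Sf3b4, named because their groups did not overlap, had the opposite order, while some other partners overlapped between groups. Sf3b5 had 47.4, 43.9 and 45.3 against 49.8, 58.7 and 61.2 (log2 0.30), and Sf3b4 had 32.1, 33.4 and 34.3 against 35.9, 40.7 and 43.3 (log2 0.25). Neither passed (limma adjusted p = 0.108 and 0.129), and after median-of-ratios scaling their log2 changes were 0.20 and 0.15 (limma adjusted p = 0.218 and 0.293). U2af1, which reads the AG of the 3′ splice site, had 85.1, 78.0 and 75.9 against 73.1, 56.4 and 55.2 (log2 −0.38, limma adjusted p = 0.109), and its partner U2af2, which reads the pyrimidine tract, had 58.2, 58.9 and 59.1 against 53.0, 54.0 and 56.6 (log2 −0.10).

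The tri-snRNP and Prp19 lists had small log2 changes. In ultrasound 2 and 3, 12 and 11 of the 18 tri-snRNP genes lay above every control (53.2% and 49.6% of all tested genes). The 18 tri-snRNP genes tested had log2 changes from −0.20 to 0.18, and none was called by limma after adjustment (lowest adjusted p = 0.277). Prpf8, the scaffold of the active site, had 70.3, 76.3 and 66.5 in the controls and 72.4, 85.8 and 78.5 in the ultrasound libraries. Snrnp200, the helicase that unwinds U4 from U6, had 39.2, 40.9 and 40.5 against 41.6, 48.8 and 43.5. Prpf8 overlapped between groups, Snrnp200 was separated by a small step, and the summed FPKM of the list was 606, 592 and 590 against 604, 647 and 613. The 19 Prp19 complex and related genes ranged from −0.25 to 0.22, with Prpf19 itself at 21.6, 21.7 and 21.2 against 22.8, 22.1 and 22.4. Of these 19, 1 lay below every control and 2 above (8.96% and 25.9% of all tested genes). The 1 below was Rbm22, which contacts U6 in the active site. It was at 62.1, 61.9 and 60.1 against 56.5, 55.02 and 56.1 (log2 −0.13, limma adjusted p = 0.251). The 6 catalytic step factors, helicases and partners of the late steps, had a median of 0.12 (0.01 after median-of-ratios scaling), and 3 lay above every control (25.9% of all tested genes). One of them, the helicase Dhx16, had 39.4, 39.4 and 40.2 against 40.5, 47.2 and 49.3. The median log2 changes of the tri-snRNP and Prp19 lists, both 0.06, become −0.04 and −0.04 after median-of-ratios scaling, so no direction is given for them.

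The exon junction complex, the TREX export complex and the cap-binding proteins mark and export spliced mRNA. Of 14 genes tested, 0 were called by limma after adjustment, 3 lay above every control and 1 below (25.9% and 8.96% of all tested genes). That 1 was Magoh, a core subunit of the exon junction complex, with an FPKM of 72.3, 72.5 and 70.2 in the controls and 56.5, 56.4 and 59.8 in the ultrasound libraries. Unlike most genes described above, Magoh was as low in ultrasound 1 as in ultrasound 2. Its log2 change was −0.31 (SE 0.08, limma adjusted p = 0.0539), and after median-of-ratios scaling it was −0.42 and passed (limma adjusted p = 0.0443). Eif4a3, the helicase that anchors the same complex, had 88.8, 83.3 and 83.5 against 86.3, 97.6 and 95.6, with overlap between the groups. Ddx39b, the TREX helicase, was at 200, 208 and 224 against 225, 229 and 242 (log2 0.14, limma adjusted p = 0.301), with ultrasound 1 only just above the highest control.

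Alyref2, an export adaptor and a near copy of Alyref, had 3.52, 3.23 and 3.94 against 4.53, 6.35 and 5.65 (log2 0.51, limma adjusted p = 0.0669), and 49.8% of its exonic bases lie on the opposite strand of another gene. Thoc1 and Thoc2, subunits of the THO part of TREX, had 14.6, 14.7 and 15.4 against 16.6, 7.98 and 8.35, and 14.6, 15.3 and 12.1 against 15.7, 7.55 and 6.65. Both were highest of all in ultrasound 1 and lowest in ultrasound 2 and 3, and 24.3% of the exonic bases of Thoc1 lie on the opposite strand of another gene.

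With ultrasound 1 left out, 67 of 123 members passed the limma test (27 higher, 40 lower), which is 54.5%, and so did 53.6% of all tested genes (33.8% higher, 19.9% lower). Of 11 SR and Tra2 genes 9 were then lower and 2 higher, of 7 Sm genes 4 and 0, and of 8 hnRNP genes 4 and 0. The 23 U2 factors were split, with 8 lower and 7 higher, as were the 8 U1 genes (4 and 2) and the 7 LSm genes (3 and 2). The 14 EJC, TREX and cap-binding genes had 5 lower and 1 higher, the 18 tri-snRNP genes 1 and 4, the 19 Prp19 genes 1 and 6, and the 6 catalytic step factors 0 and 2. The log2 change of Tra2a was then −1.14 and that of Tra2b −0.99. With a term for ultrasound 2 and 3, which compares ultrasound 1 alone with the controls, limma called 0 members after adjustment (10 at an unadjusted p under 0.05) and 1.41% of all genes. The values of ultrasound 1 were −0.40 for Tra2a and −0.50 for Tra2b on the log2 scale.

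Splicing genes outside the pathway were examined as 66 further genes, all tested. Limma called 3 of the 66 after adjustment, 1 higher and 2 lower, beside 8.11% of all tested genes (6.55% higher and 1.56% lower). The Clk and Srpk kinases phosphorylate SR proteins. Clk4 fell, from 27.8, 28.2 and 30.6 to 23.6, 18.6 and 17.9 (log2 −0.52, SE 0.12, limma adjusted p = 0.0494), and Clk1 had 208, 220 and 262 against 177, 122 and 125 (log2 −0.72, limma adjusted p = 0.0509). All ultrasound libraries were below all controls in both, while Srpk1 differed by −0.16. The kinases did not all go 1 way. Of the 9 tested, 6 had a log2 change below 0 and 3 above, from −0.72 to 0.98. Without ultrasound 1, limma called 4 of the 9 kinases lower and 2 higher. Of the 11 minor spliceosome genes, Zrsr1, which recognizes the 3′ splice site, fell from 10.8, 10.9 and 10.8 to 8.69, 7.49 and 6.92 (log2 −0.45, limma adjusted p = 0.0469). Scnm1, whose protein acts in the minor spliceosome, rose from 24.7, 24.0 and 27.3 to 31.96, 36.6 and 38.6 (log2 0.48, limma adjusted p = 0.0423). After median-of-ratios scaling only the Zrsr1 call held of these 3 (limma adjusted p = 0.0461), with Clk4 at 0.0505 and Scnm1 at 0.0757.

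The 30 other regulators had 0 calls, 22 log2 changes below 0 (38.3% of all tested genes) and a median of −0.19. After median-of-ratios scaling 28 of the 30 lay below 0, and 5415 of 10655 tested genes. Hnrnph1, a G-run binder, had 124, 126 and 112 against 93.1, 50.1 and 46.3 (log2 −0.99, limma adjusted p = 0.0601), the lowest log2 change among the 30 regulators. Sfpq, a paraspeckle protein that also acts on Ptprc splicing, had 63.1, 65.1 and 55.9 against 51.1, 30.3 and 30.2 (log2 −0.75, limma adjusted p = 0.0721). Hnrnpll, the activation-induced silencer of Ptprc exons, overlapped between groups, at 14.7, 15.4 and 14.4 against 19.5, 11.1 and 12.9 (log2 −0.07). For Celf2 (−0.21), Son (−0.31), Srrm2 (0.00), Luc7l3 (−0.05) and the kinase Dyrk1a (−0.33) the log2 changes did not pass the limma test either. The table counts genes and not exons, so no splicing outcome was measured.

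The members' log2 change varied with the GC content of their transcripts, taken from the longest protein-coding transcript of each gene for 122 of 123 members. The Spearman rho across genes was 0.65 for members, 0.60 for the 111 with a transcript outside the SR list, and 0.41 over 10009 tested genes; genes of a library share its depth and composition. By library, rho over members was 0.15 for ultrasound 1, 0.58 for ultrasound 2 and 0.68 for ultrasound 3, and over all genes −0.00, 0.41 and 0.48. With transcript length it was −0.13 over members and −0.20 over all genes.

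Members with a GC content under 45% numbered 39, of which 36 (92.3%) had a log2 change below 0, as had 70% of 2361 tested genes in that range. Their median was −0.38 and that of the tested genes −0.16. The 8 SR and Tra2 genes in that range had a median of −0.58 and the 31 other members one of −0.35. From 45 to 50% GC, 18 of 33 members (54.5%) and 40% of tested genes lay below 0. From 50 to 55% it was 5 of 30 members (16.7%) and 23% of tested genes. From 55% up it was 5 of 20 members (25%) and 18.7% of tested genes. The median GC content was 42.8% for the SR and Tra2 list, 43.8% for the hnRNP list and 50.9% for the tri-snRNP list. The SR genes that sat above the controls by FPKM were those highest in GC content, Srsf9 at 56.2% and Srsf4 at 56.8%. After median-of-ratios scaling the log2 change of Srsf4 was only 0.04. Tra2a was at 44.1% GC and Tra2b at 41.8%. Srsf2, next in GC content at 50%, had a log2 change of −0.64, so GC content did not order the whole list. The part of GC content in the results above was not tested.

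**Figure D4:**
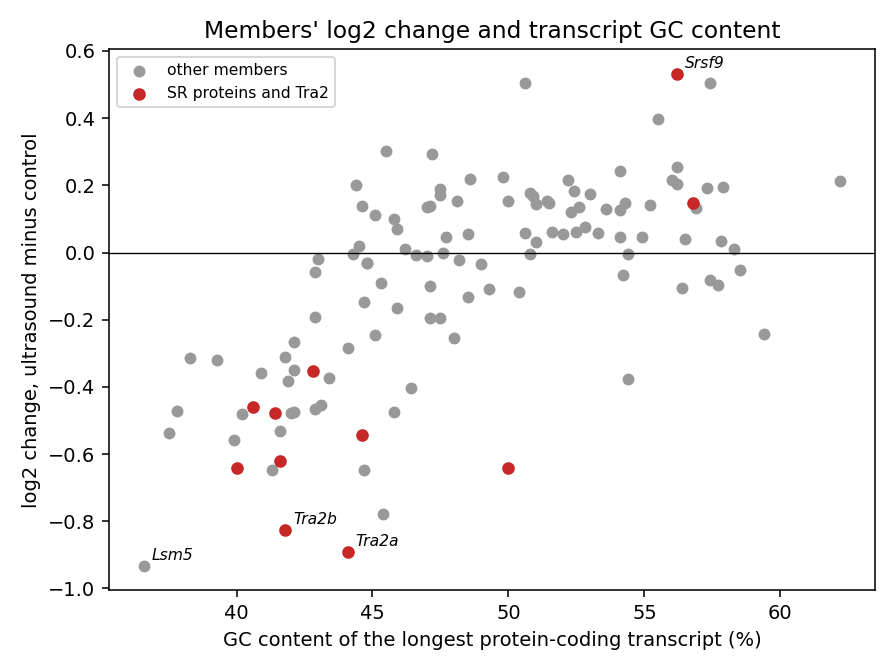
Log2 change on the log2(FPKM + 1) scale (ultrasound minus control) against transcript GC content in percent, 1 point per member with a transcript, the SR and Tra2 genes in red. Points below 45% GC lie mostly under 0 (36 of 39), and Srsf9 at 56.2% GC is the highest.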

How the data were processed

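FPKM per library and group values for 17744 genes came from the authors' deposited tables. The authors named HISAT2, HTSeq, DESeq2 and R 3.2.0 and build mm10, per the submitters' processing notes. The deposited signal columns are means of DESeq2 normalized counts, and the deposited fold ratio, log2 fold change, p-value and q-value come from the same comparison, per the file headers. Counting options and strand are not given in the sources used here; the kit version differs between 2 protocol texts.

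The planned test for FPKM was used: limma 3.58.1 (trend, robust; R 4.3.3) on log2 of FPKM with a pseudocount of 1, for the 10655 genes that reached an FPKM of 1 in 3 libraries, two-sided, with Benjamini-Hochberg adjustment and a threshold of 0.05. Folds on this scale understate low genes. Whole reads were recovered from FPKM and group means: 100% of 64001 values over 0 and under 1000 reads lay within 0.05 of a whole number, and limma-voom on these reads called 840 genes and 2 members. Libraries held 35024080 to 38113103 reads; reads carry no molecular identifiers. In simulated data all libraries shared a common dispersion, and none was set apart from its group as ultrasound 1 is. At a dispersion of 0.01 the fit recovered 100% of 98 genes changed 2-fold and 100% of 100 changed 4-fold (10694 genes, 12 false calls). At a dispersion of 0.05 it recovered 52% of 100 and 100% of 97 (10683 genes, 10 false calls). These shares therefore do not give the recovery in the real libraries.

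The members and lists were chosen with earlier results of these data known. Named genes are the called members, those with the largest changes among the non-overlapping to 5 in a direction, the 5 with the highest mean FPKM, a panel of well-known core, SR, hnRNP and related genes, and the called related genes. Srsf6, Srsf10, Srsf4, Magoh, Lsm5, Lsm7, Lsm8, Snrpf, Snrpe, Snrpa, Rbm22, Dhx16, Thoc1, Thoc2, Sfpq, Hnrnph1 and Dyrk1a were chosen after their values were seen. Some members are not reported here by name. Coordinates, promoters and identifiers are from RefSeq (GRCm38.p6); GC content and exon overlap are from GENCODE M21, which matched 123 members. Markers of the 6 cell types and states listed in the tables were summed as FPKM; erythroid genes summed to 83.2 to 133 in controls and 55.3 to 112 in ultrasound libraries, and proliferation genes to 351 to 403 and 285 to 382. Same-numbered libraries were checked for pairing: their deviations correlated at −0.04, 0.05 and 0.06. With 3 libraries in a group and ultrasound 1 set apart from its group, this check cannot exclude a pairing. The main fit used none. Alternatives covered scaling, the filter, the pseudocount, the robust option, reads, thresholds, the most abundant gene classes and leaving out single libraries. Other tools were matplotlib 3.10.9, scipy 1.17.1, pandas 2.3.3, numpy 2.4.6 and Python 3.11.15.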

Additional observations from a re-analysis of the deposited data

How the results depend on the processing

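Against 864 genes called in all, 2 members, 3 related genes and a median log2 change over members of −0.005, median-of-ratios factors gave 437 genes, 1 related gene and −0.110, and upper-quartile factors gave 4 members (Magoh, Srsf7, Tra2a, Tra2b) and −0.099. Limma-voom on recovered reads with median-of-ratios factors, chosen after seeing the data, gave 573 genes, 5 members and −0.112. Without mitochondrial, hemoglobin and immunoglobulin genes the median was −0.028. With no filter on low values limma called 0 genes, 0 members and 0 related genes (4216, 22 and 17 at an unadjusted p under 0.05). When a term took up ultrasound 2 and 3, limma called 150 genes, 0 members and 0 related genes (10 members and 14 related genes unadjusted). At an adjusted p under 0.1 there were 1962 genes and 11 members. The authors' deposited table has a q under 0.05 for 1745 tested genes, 17 members and 11 related genes, with a median of −0.129.

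With a replicate block limma called 0 genes, 0 members and 0 related genes (3249, 31 and 17 at an unadjusted p under 0.05); 1 of 3 controls correlated best with its own number, and a number alone does not pair the libraries.

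Leaving out each library gave 0 to 5628 genes, 0 to 67 members, 0 to 36 related genes, a median of −0.021 to −0.000 and 35 to 98 members not overlapping, against 34 with all libraries. The 98 and the 67 are without ultrasound 1, and without control 3 it was 52 not overlapping. Fewer libraries separate more easily for any gene, and the non-overlapping share over all tested genes was not computed for these settings. The non-overlapping counts are therefore not read as a trait of the members. The non-overlapping count was not taken for the pseudocount, robust, voom, term, block and authors' settings. The pseudocount, robust, term and block settings leave the order of the libraries as it is, and the authors' fold changes and q-values are not by library. Voom with median-of-ratios factors rescales the libraries, so the order there can differ.

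Of 54 named genes under 17 alternatives, 778 results kept direction and side of the threshold, 48 lost and 66 gained a call, and 26 changed direction; the cause was not tested. Prpf19 and Srrm2 were at −0.042 and −0.102 with median-of-ratios factors, −0.032 and −0.091 with upper-quartile factors, −0.044 and −0.103 with voom and median-of-ratios factors, and −0.063 and −0.125 in the authors' deposited table. Srrm2 was at −0.021 without the abundant genes, −0.029 with the term, and −0.060 to 0.061 with a library left out (below 0 without control 3, ultrasound 2 or ultrasound 3). With the term, Snrnp70 was at 0.121, Hnrnpk 0.023, Hnrnpll 0.369, Son 0.023, Luc7l3 0.095, Srsf10 0.151, Lsm5 0.099, Lsm7 −0.072, Lsm8 0.043, Thoc1 0.146 and Thoc2 0.159. With a library left out, Snrnp70 ranged from −0.136 to 0.043 and Hnrnpll from −0.289 to 0.091, both highest without ultrasound 2.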
